A study of Homo sapiens with 24 samples.

Results

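The genes described here were 10 components of bone morphogenetic protein (BMP) and transforming growth factor beta (TGF-beta) signalling: the ligands BMP2, BMP4, TGFB1 and TGFB2, the ligand antagonist NBL1, the signal transducers SMAD3 and SMAD4, the inhibitory SMADs SMAD6 and SMAD7, and the corepressor SKIL. They were chosen by name, and their values were the summed levels of all transcripts with that gene symbol. They are 10 of the 25341 genes in the table, and all 10 were among the 13416 tested, whose mean over the libraries was 1 TPM or more. TPM, the deposited unit, is a relative abundance corrected for the length of the transcript, and it adds up to the same sum in every library.

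The libraries came from U2OS, a human bone osteosarcoma line, in a custom Tet-off double stable derivative that carries an inducible S254D mutant of Tob2. The protein is one of the BTG/TOB family, whose members bind the CCR4-NOT deadenylase. Uninduced cells had doxycycline in the medium and induced cells did not, so effects of the drug and of the transgene cannot be told apart. In both arms, newly made RNA was labelled with bromouridine and chased for 0, 0.5, 1, 2, 4 or 6 h, and the labelled molecules were recovered with an antibody from cytoplasmic RNA. Each of the 12 groups of arm and time had 2 libraries, 24 in all. Nothing says that replicates came from separate cultures or that the line is more than 1 clone, so p-values measure the spread between these libraries, which may be technical. A value is a share of the labelled RNA of its own library: a loss common to all RNAs is not visible, and labelled RNA that reaches the cytoplasm during the chase cannot be told apart from RNA that outlasts its neighbours.

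Ligands of the family bind pairs of receptor kinases at the cell surface. The receptors phosphorylate a receptor-regulated SMAD, SMAD3 for TGF-beta and activin or a BMP-type SMAD for BMPs, which joins SMAD4 and enters the nucleus. Several of the genes switched on in this way damp the pathway: SMAD7 and SMAD6 block the receptors or compete with SMAD4, and SKIL represses SMAD target genes until it is degraded. In bone, BMP2 and BMP4 drive osteoblast differentiation, and TOB1, the paralog of TOB2, is known as a brake on BMP signalling in osteoblasts.

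The induced gene separated the arms. TOB2 was at 267.4 and 245.8 TPM in the uninduced libraries at 0 h and at 653.3 and 516.5 TPM in the induced ones. At 6 h it was at 104.9 and 92.3 TPM against 710.9 and 576.4 TPM, and reads of the transgene and the endogenous gene were not separated. The 2 libraries of a group correlated over genes with r from 0.970 to 0.986. The 3 most abundant noncoding RNAs, RMRP, RPPH1 and MIR6723, took 21.2% to 27.5% of the TPM at 0 h and 7.14% to 8.45% at 6 h, which moves every share with time. Their share was highest in replicate 2 of the induced arm at 0 and 0.5 h, at 27.5% each. Of 10 osteoblast markers only RUNX2, COL1A1 and BGLAP had a mean of at least 1 TPM, and IBSP and DLX5 were at 0 in every library. Of the markers of other cells, 2 of 5 leukocyte genes (LYZ at a mean of 29.7 TPM and CD14), 2 of 4 endothelial genes and 0 of 4 epithelial genes reached a mean of 1 TPM, while PTPRC, the defining leukocyte surface protein, had a mean of 0.149 TPM. Summed, the leukocyte markers spanned 14.2 to 44.0 TPM over uninduced libraries and 16.0 to 62.6 TPM over induced ones. The osteoblast markers summed to 10.2 to 22.3 TPM and 14.2 to 29.4 TPM, the endothelial markers to 2.52 to 5.21 TPM and 3.40 to 5.20 TPM, and the epithelial markers to 0.11 to 0.39 TPM and 0.04 to 0.57 TPM. The part of these differences in the results below was not tested.

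At the start of the chase the genes spanned a wide range of levels in uninduced cells. BMP2 stood at 120.9 ± 1.90 TPM (SD, n = 2), SMAD6 at 100.7 ± 7.46, SKIL at 61.1 ± 1.096, SMAD7 at 55.8 ± 2.52 and SMAD3 at 34.7 ± 1.66. SMAD4 followed at 12.6 ± 0.120 TPM, NBL1 at 10.9 ± 1.94, TGFB1 at 10.7 ± 0.0354, TGFB2 at 2.53 ± 0.269 and BMP4 at 2.11 ± 0.516. The libraries of NBL1 and TGFB1 overlapped, as did those of TGFB2 and BMP4, and the other neighbours in this order did not. In induced cells BMP2 was again the highest at 143.9 ± 15.5 TPM, and the overlapping neighbours were SKIL with SMAD6, SMAD4 with TGFB1, and TGFB2 with BMP4. By 6 h the order had changed: SKIL at 55.3 ± 10.2 TPM stood above BMP2 at 37.5 ± 2.91 TPM in induced cells, with no overlap, whereas the libraries of BMP2 and SKIL overlapped in uninduced cells. SMAD7 went from the fourth place at 0 h to the eighth in uninduced and the seventh in induced cells at 6 h.

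**Figure D1:**
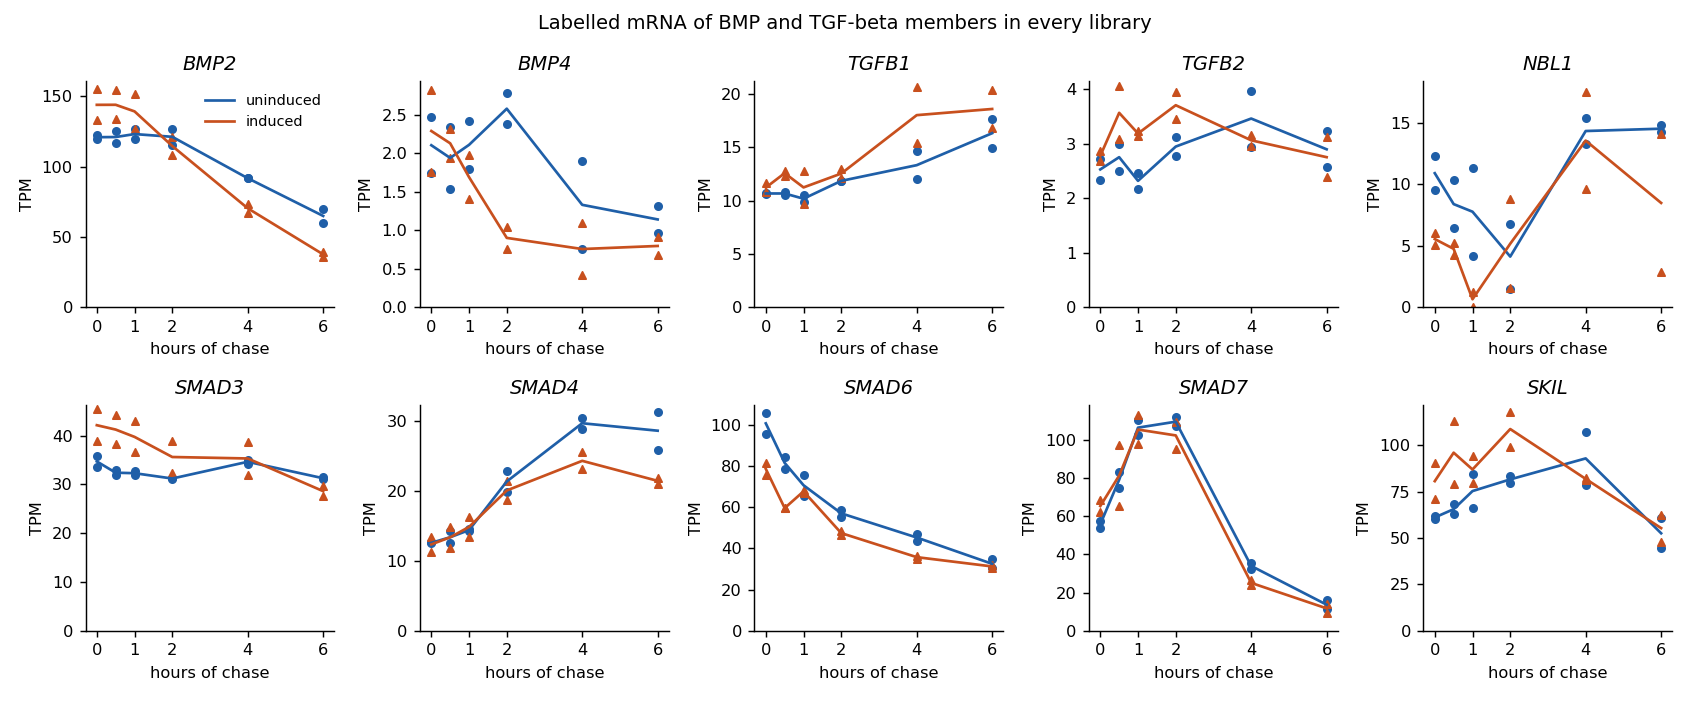
Labelled mRNA (TPM, linear axes from 0) against hours of chase for the 10 genes, with a point for each of the 24 libraries (circles uninduced, triangles induced) and lines through the means of 2 libraries. BMP2 starts higher and ends lower in induced cells, and SMAD7 peaks at 1 to 2 h in both arms. The mean of SMAD6 is highest at 0 h and lowest at 6 h in both arms.

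Over the chase the ligand BMP2, the inhibitory SMADs and BMP4 fell as a share of labelled RNA in both arms, while SMAD4 and TGFB1 rose. A straight line on hours of chase, fitted to log2(TPM + 1), gave the slope of each arm. In uninduced cells 2 genes rose (SMAD4, TGFB1) and 4 fell (BMP2, BMP4, SMAD6, SMAD7), where 42.8% of all genes tested rose and 22.3% fell. In induced cells the same 2 rose and 6 fell (also SKIL and SMAD3), where 41.6% of all genes rose and 29% fell. The median slope of the 10 genes was -0.01 log2 per hour uninduced and -0.09 induced, against 0.04 and 0.03 over all genes tested, and 7 of 10 lay below the median of all genes in each arm. These background shares depend on scaling: rising genes made up 65.8% of the uninduced calls as deposited, 48.4% under median-of-ratios scaling and 52.5% with the 3 noncoding RNAs removed. For the induced slopes the figures were 58.9%, 49.1% and 45.4%. SKIL lost its induced call without induced 0.5 h replicate 1 or either induced 6 h library, and was at -0.05 (adjusted p = 0.294) without induced 6 h replicate 2. BMP4 lost its uninduced call without uninduced 4 h replicate 2 or 6 h replicate 2 (-0.09, adjusted p = 0.116 without uninduced 6 h replicate 2), and under quantile normalization both BMP4 calls were lost (-0.03, adjusted p = 0.496 uninduced and -0.06, adjusted p = 0.168 induced).

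**Figure D2:**
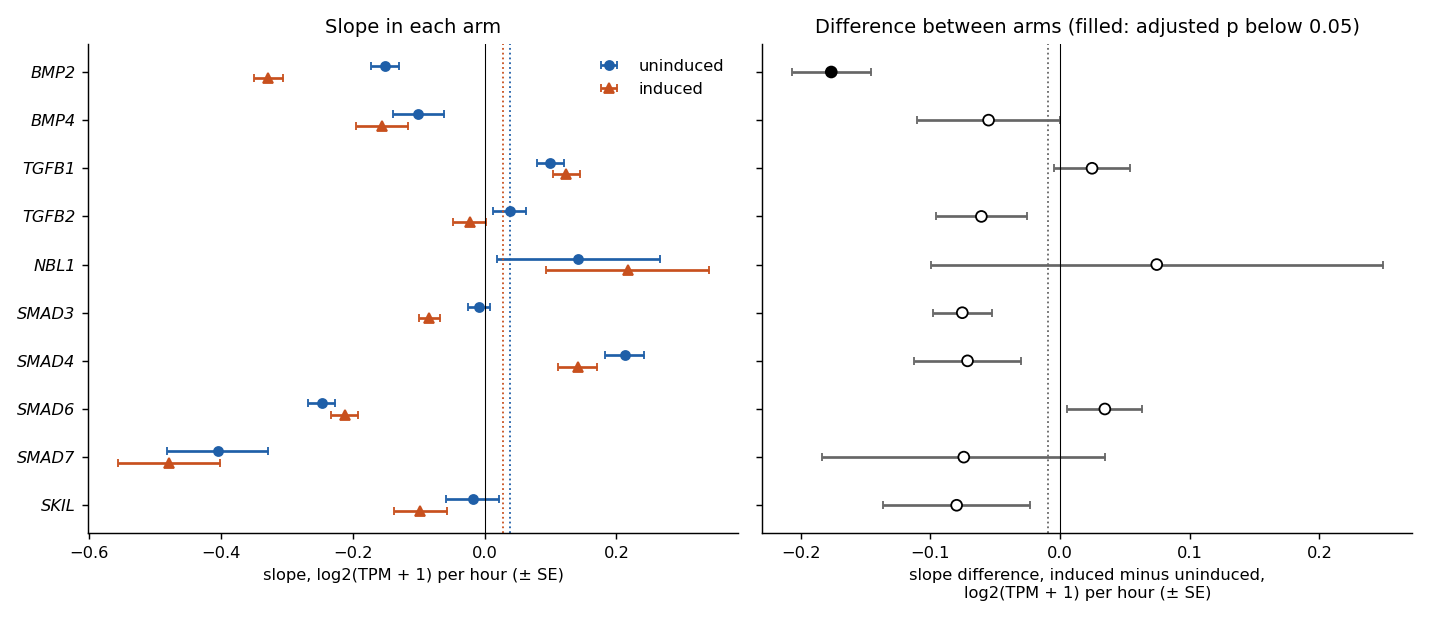
Left, slope of each gene in log2(TPM + 1) per hour, with its standard error, in uninduced (circles) and induced (triangles) cells; dotted lines are the medians of all genes tested. Right, slope difference, induced minus uninduced, with its standard error; BMP2, at -0.18, is the only filled point.

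BMP2, the osteoinductive ligand, was the gene whose course differed between the arms. In uninduced cells its 2 libraries were at 122.2 and 119.5 TPM at 0 h, 116.7 and 125.3 at 0.5 h, 126.6 and 119.7 at 1 h, 115.2 and 127.1 at 2 h, 91.6 and 91.8 at 4 h, and 69.9 and 59.8 at 6 h. In induced cells they were at 132.9 and 154.9 TPM at 0 h, 133.7 and 154.2 at 0.5 h, 126.8 and 151.7 at 1 h, 108.0 and 121.2 at 2 h, 67.0 and 73.6 at 4 h, and 35.4 and 39.5 at 6 h. The induced libraries were both above the uninduced ones at 0, 0.5 and 1 h, overlapped with them at 2 h and were both below them at 4 and 6 h. With 2 libraries in each arm, such overlaps or gaps, here and below, describe these libraries and were not tested. The share of all genes without overlap is not given. The ratio of the means, induced to uninduced, went from 1.19 at 0 h to 0.946 at 2 h, 0.767 at 4 h and 0.578 at 6 h. After 6 h the mean stood at 53.7% of its 0 h value in uninduced and 26.1% in induced cells.

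The slopes of BMP2 were -0.15 log2(TPM + 1) per hour (SE 0.0215, adjusted p = 1.5e-06) in uninduced and -0.33 (SE 0.0215, adjusted p = 4.2e-12) in induced cells. Their difference was -0.18 (SE 0.0304, adjusted p = 0.00807), which made BMP2 the 1 gene of the 10 past the threshold of 0.05. Over all genes tested 0.335% had a lower and 0.00745% a higher slope when induced, and BMP2 ranked 148th from the lowest of 13416 differences. The median slope difference was -0.07 over the 10 genes and -0.01 over all genes. The call of BMP2 was lost without induced 6 h replicate 1 (-0.15, adjusted p = 0.0677), with replicate 2 alone (-0.17, adjusted p = 0.993) or replicate 1 alone (-0.19, adjusted p = 0.189), and over the chase to 4 h (-0.17, adjusted p = 0.227) or 2 h (-0.17, adjusted p = 1). At 6 h BMP2 was lower in induced cells, with a log2 difference of -0.77 (SE 0.117, adjusted p = 0.000454), again the 1 gene of the 10 that passed, where 8.04% of all genes were lower and 1.1% higher. Higher genes made up 12.1% of all 6 h calls, and 25.7% under median-of-ratios scaling. At 0 h the difference of BMP2 was 0.25 (SE 0.117, unadjusted p = 0.0519, adjusted p = 0.769), so the higher start of the induced libraries did not pass.

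In uninduced cells the drop of BMP2 came after 2 h. In induced cells the mean was already lower at 2 h (114.6 ± 9.31 TPM) than at 1 h (139.2 ± 17.6 TPM). The induced slope kept its call in all 39 alternatives, among them the chase to 2 h. Between 2 and 6 h BMP2 fell by 0.89 log2 (SE 0.117, adjusted p = 1.76e-05) in uninduced and fell by 1.59 (SE 0.117, adjusted p = 1.37e-08) in induced cells. Between 0 and 1 h the changes were 0.03 and -0.05, neither past the threshold. BMP2 has 1 transcript in the table, NM_001200, and at that level its slope difference had an adjusted p = 0.0264 over 21749 transcripts. The 2 genes whose 12 group means followed BMP2 most closely among the 10385 whose mean reached 5 TPM were TOB1 (Pearson r = 0.995) and PHLDA1, a pleckstrin homology-like domain gene (r = 0.990). These correlations share all libraries and describe a pattern chosen for its likeness. TOB1 went from 248.9 ± 10.3 to 110.8 ± 10.4 TPM between 0 and 6 h in uninduced and from 296.0 ± 28.9 to 66.9 ± 12.4 TPM in induced cells (SD, n = 2).

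**Figure D3:**
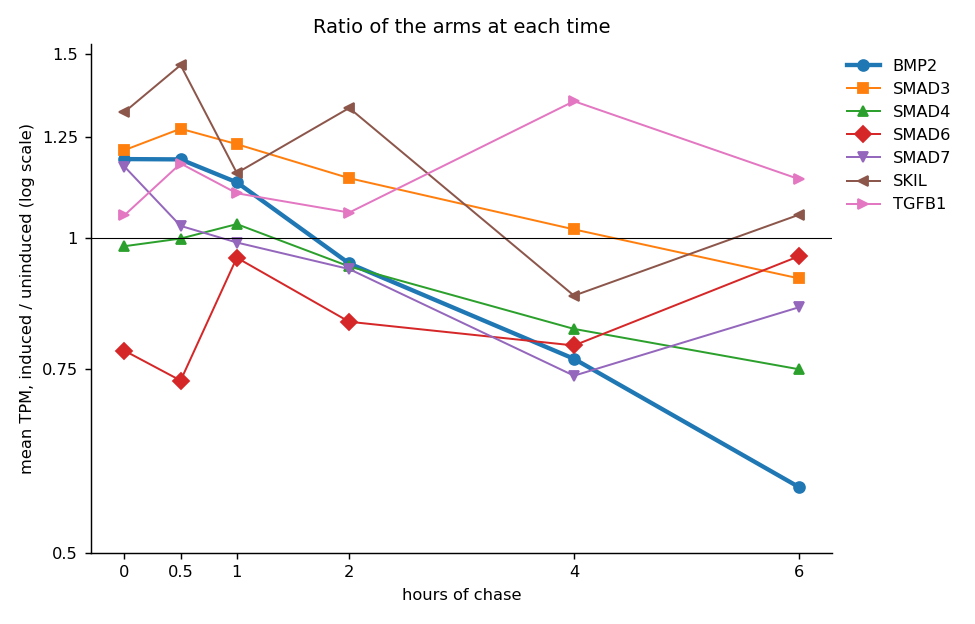
Ratio of mean TPM, induced to uninduced (log axis), at each hour of chase for the 7 genes with a mean over 10 TPM; each mean is of 2 libraries. BMP2 (thick line) goes from 1.19 to 0.578, and the other genes end between 0.749 and 1.14.

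The other BMP ligand, BMP4, was the lowest of the 10 genes. Its values lay between 0.76 and 2.78 TPM without induction and between 0.42 and 2.82 TPM with it. At 2 h the uninduced libraries were at 2.38 and 2.78 TPM and the induced ones at 1.04 and 0.76 TPM, with no overlap, and the arms overlapped at 0, 0.5, 1 and 4 h. BMP4 fell in both arms, with slopes of -0.10 (SE 0.0389, adjusted p = 0.027) and -0.16 (SE 0.0389, adjusted p = 0.00105), and their difference between arms was -0.06 (SE 0.055, adjusted p = 0.739). At this level the pseudocount of 1 shrinks log2 changes. The uninduced call was also lost over 0 to 4 h (-0.09, adjusted p = 0.233) and from 6 h minus 0 h (-0.09, adjusted p = 0.108). With replicate 1 alone the uninduced slope was -0.04. All BMP4 signal sat on 1 of its 3 transcripts, NM_130850, whose uninduced slope had an adjusted p = 0.0689 over 21749 transcripts.

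TGFB1, the main TGF-beta ligand, rose in both arms. Its uninduced libraries were both at 10.7 TPM at the start and at 15.0 and 17.7 TPM after 6 h; its induced ones went from 10.8 and 11.7 to 16.8 and 20.4 TPM. The mean at 6 h was 153.1% and 165.8% of the 0 h value. The slopes were 0.10 (SE 0.0206, adjusted p = 0.000183) and 0.12 (SE 0.0206, adjusted p = 9.63e-06), with a difference of 0.02 (SE 0.0291, adjusted p = 0.786). Both induced libraries were above both uninduced ones at 0, 0.5, 2 and 4 h, the widest gap being at 4 h (15.4 and 20.7 against 12.0 and 14.7 TPM). TGFB2, a second TGF-beta ligand, stayed between 2.17 and 4.06 TPM in all 24 libraries. Its slopes were 0.04 and -0.02, neither past the threshold, and its difference of -0.06 (SE 0.0348) had an adjusted p = 0.504. The uninduced slope passed under quantile normalization (0.09, adjusted p = 0.0043). The induced slope passed without the 3 noncoding RNAs (-0.06, adjusted p = 0.0288) and with protein-coding transcripts alone (-0.07, adjusted p = 0.015). The induced libraries of TGFB2 were above the uninduced ones at 0.5, 1 and 2 h and overlapped with them at 0, 4 and 6 h.

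NBL1, a secreted antagonist of BMPs also known as DAN, could not be separated from a readthrough gene. The symbol NBL1 varied from 0.01 to 17.6 TPM between libraries, and the readthrough MINOS1-NBL1, which shares its exons, from 0.61 to 15.3 TPM. In the induced libraries at 1 h NBL1 was at 1.27 and 0.01 TPM while MINOS1-NBL1 was at 10.8 and 11.6 TPM. Their sum was steadier, at 8.1 to 20.4 TPM. Over 6 h it went from 13.3 ± 2.84 to 19.8 ± 0.841 TPM in uninduced and from 10.1 ± 0.0778 to 17.8 ± 0.375 TPM in induced cells (SD, n = 2). The slopes of the sum, an analysis added after seeing the data, were 0.10 (SE 0.0236, adjusted p = 0.000584) and 0.15 (SE 0.0236, adjusted p = 5.06e-06). For the symbol alone neither slope passed (0.14, SE 0.123, adjusted p = 0.318 and 0.22, SE 0.123, adjusted p = 0.118). The slope difference of the sum was 0.05 (SE 0.0333, adjusted p = 0.603).

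SMAD4, the partner shared by both branches, rose more than any other gene of the 10 between 0 and 6 h in uninduced cells. Its libraries went from 12.7 and 12.5 TPM at 0 h through 22.8 and 19.9 at 2 h to 30.5 and 29.0 at 4 h and 31.4 and 25.9 at 6 h. In induced cells they went from 13.5 and 11.3 through 21.5 and 18.7 to 23.1 and 25.5 and then 21.1 and 21.9 TPM. The arms overlapped up to 2 h, and both induced libraries were lower at 4 and 6 h. The slopes were 0.21 (SE 0.0291, adjusted p = 9.07e-07) and 0.14 (SE 0.0291, adjusted p = 0.000145), and their difference of -0.07 (SE 0.0411) had an adjusted p = 0.507. The 6 h difference of -0.39 (SE 0.139, adjusted p = 0.0943) missed the threshold as deposited. It passed under median-of-ratios scaling (-0.38, adjusted p = 0.0156), under quantile normalization (-0.32, adjusted p = 0.036) and without the 3 noncoding RNAs (-0.41, adjusted p = 0.0325). Over the 12 group means SMAD4 was most like ZFP91 (r = 0.993) and SPIN1 (r = 0.990).

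SMAD3, the TGF-beta-type SMAD, was nearly flat in uninduced cells, between 31.1 and 35.9 TPM in all 12 libraries. In induced cells it started at 45.4 and 38.8 TPM and ended at 29.6 and 27.6 TPM. Both induced libraries were above both uninduced ones at 0, 0.5, 1 and 2 h and below them at 6 h. The induced slope was -0.08 (SE 0.0162, adjusted p = 7.25e-05) and the uninduced one -0.0082 (SE 0.0162, adjusted p = 0.674). The difference of -0.08 (SE 0.0229, unadjusted p = 0.00308) had an adjusted p = 0.151, so a difference between the arms was not shown. It passed without the 3 noncoding RNAs (-0.09, adjusted p = 0.0335), a setting in which SMAD3 also fell in uninduced cells (-0.05, adjusted p = 0.0095). The uninduced slope of SMAD3 was also called under median-of-ratios scaling (-0.06, adjusted p = 0.00228) and quantile normalization (-0.07, adjusted p = 0.000234).

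SMAD7, which recruits ubiquitin ligases to activated receptors, had its highest means at 1 to 2 h and then fell steeply in both arms. In uninduced cells it was at 57.6 and 54.0 TPM at 0 h, 74.99 and 83.2 at 0.5 h, 110.3 and 102.5 at 1 h, 107.2 and 111.9 at 2 h, 32.4 and 35.5 at 4 h, and 16.1 and 11.3 at 6 h. In induced cells it was at 68.3 and 62.4 TPM at 0 h, 97.1 and 65.5 at 0.5 h, 113.2 and 97.6 at 1 h, 95.0 and 109.6 at 2 h, 23.8 and 26.4 at 4 h, and 14.0 and 9.5 at 6 h. The peak mean was 1.96 times the 0 h mean in uninduced and 1.61 times in induced cells, and it exceeded the 6 h mean 8.02 and 8.98 times. The arms overlapped at 0.5, 1, 2 and 6 h. Both induced libraries were higher at 0 h and lower at 4 h.

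The rise of SMAD7 from 0 to 1 h was 0.92 log2 (SE 0.187, adjusted p = 0.0136) in uninduced cells. In induced cells it was 0.68 (SE 0.187, adjusted p = 0.0545) and missed the threshold, which it passed over genes with a mean of 5 TPM or more (adjusted p = 0.0434). The induced call was gained without any of 6 single libraries of other groups, and the difference between the 2 rises was not tested. The uninduced call was lost without any of 4 single libraries, those at 0 and 1 h, with adjusted p up to 0.138 (0.87 without uninduced 1 h replicate 1). From 0 to 1 h 1 of the 10 genes rose and 1 fell in uninduced cells, where 2.93% of all genes rose and 0.619% fell. In induced cells 0 of 10 passed by limma and 3 had an unadjusted p under 0.05, where 2.92% of all genes rose, 0.798% fell and 18.3% had an unadjusted p under 0.05. Rising genes made up 82.6% of the uninduced and 78.6% of the induced early calls, and 54.8% and 48.5% under median-of-ratios scaling, which shifted the median induced change of all genes by -0.10 log2; with the 3 noncoding RNAs removed they made up 71.5% and 55.7%.

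From 2 to 6 h SMAD7 fell by 2.93 log2 (SE 0.187, adjusted p = 4.94e-09) in uninduced and fell by 3.04 (SE 0.187, adjusted p = 1.87e-09) in induced cells. Since its course bends, a straight line describes it poorly: the slopes over all times were -0.40 and -0.48, and over 0 to 2 h alone they were 0.46 (adjusted p = 0.0039) and 0.32 (adjusted p = 0.0291). Between arms the slopes differed by -0.07 (SE 0.109, adjusted p = 0.835). Of its 4 transcripts, NM_005904 held 50.9% and NM_001190822 34.5% of the signal, and the split of reads between isoforms is an estimate. The genes most like SMAD7 over the 12 group means were IFIT2, an interferon-induced gene (r = 0.993), and TXNIP, the thioredoxin-interacting protein (r = 0.990). TXNIP had 23.6 ± 3.12 TPM at the start, 54.2 ± 4.15 after 1 h and 7.43 ± 1.78 after 6 h in uninduced cells (SD, n = 2).

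SMAD6, the inhibitory SMAD of the BMP branch, did not rise first. In uninduced cells it was at 106.0 and 95.5 TPM at 0 h, 78.4 and 84.6 at 0.5 h, 75.7 and 65.7 at 1 h, 58.9 and 55.2 at 2 h, 47.1 and 43.5 at 4 h, and 34.7 and 30.4 at 6 h. In induced cells it was at 75.7 and 81.6 TPM at 0 h, 59.6 and 59.6 at 0.5 h, 68.5 and 66.9 at 1 h, 48.3 and 46.6 at 2 h, 36.5 and 35.0 at 4 h, and 31.9 and 30.6 at 6 h. Both induced libraries were lower at 0, 0.5, 2 and 4 h, and the arms overlapped at 1 and 6 h. The 0 h difference was -0.35 (SE 0.0977, unadjusted p = 0.00226) with an adjusted p = 0.374. At 0 h 0 of the 10 genes passed by limma and 2 had an unadjusted p under 0.05 (SMAD6 and SMAD3), where 0.0224% of all genes were higher, 0.00745% lower and 6.57% (881 genes) had an unadjusted p under 0.05. Higher genes were 75% of these few calls, 87.5% with the 3 noncoding RNAs removed and 100% under median-of-ratios scaling.

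Between 0 and 1 h SMAD6 fell by 0.51 log2 (SE 0.0977, adjusted p = 0.00958) in uninduced cells, and its change was -0.21 (SE 0.0977, adjusted p = 0.259) in induced cells. The uninduced call was lost without uninduced 0 h replicate 1 or 1 h replicate 2 (-0.41, adjusted p = 0.108 without uninduced 1 h replicate 2). The slopes over the whole chase were -0.25 (SE 0.0204, adjusted p = 4.27e-10) and -0.21 (SE 0.0204, adjusted p = 2.57e-09), and their difference was 0.03 (SE 0.0289, adjusted p = 0.682). At 6 h its mean TPM, a share of the labelled RNA, stood at 32.3% of the 0 h mean in uninduced and 39.7% in induced cells. The genes most like SMAD6 were the histone H3 genes HIST2H3A and HIST2H3C (r = 0.991 each), which had identical values in every library and so count as 1.

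SMAD6 is also the gene of the set whose promoter window held the SMAD-binding palindrome GTCTAGAC, and it is shown for the feedback it is known for. RefSeq windows (GRCh38.p14, 250 bases before to 50 after each start) were matched for 9 of the 10 genes, 21 windows in all (the BMP2 promoter was not searched), and 1 of these held the palindrome, against 71 of 35116 windows of all genes (0.202%). The palindrome reads alike on both strands. The 250 bases before the SMAD6 start at chr15:66701986-66702235, plus strand, follow 5′ to 3′, with the palindrome in capitals, 12 to 5 bases before the start.
SMAD6: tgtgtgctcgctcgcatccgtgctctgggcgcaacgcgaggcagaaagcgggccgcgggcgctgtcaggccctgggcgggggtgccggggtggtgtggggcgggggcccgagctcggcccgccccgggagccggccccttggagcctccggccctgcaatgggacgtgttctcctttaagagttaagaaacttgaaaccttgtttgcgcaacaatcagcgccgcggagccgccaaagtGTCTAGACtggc
A chase of labelled RNA does not measure the activity of a promoter, and a match of these letters is not a binding site.

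SKIL, which encodes the corepressor SnoN, had its highest mean at 4 h in uninduced and at 2 h in induced cells. Its uninduced libraries went from 61.9 and 60.3 TPM at 0 h to 83.3 and 79.9 at 2 h. They were at 107.1 and 78.8 TPM at 4 h and 60.6 and 44.6 at 6 h. Only replicate 1 was highest at 4 h, while replicate 2 was highest at 2 h. Its induced libraries started at 90.5 and 70.8 TPM, peaked at 118.2 and 99.3 at 2 h, and were at 81.4 and 82.3 at 4 h and 62.6 and 48.1 at 6 h. Both induced libraries were above both uninduced ones at 0, 0.5 and 2 h, and the arms overlapped at 1, 4 and 6 h. The slope was -0.02 (SE 0.04, adjusted p = 0.711) in uninduced and -0.10 (SE 0.04, adjusted p = 0.033) in induced cells, with a difference of -0.08 (SE 0.0566, adjusted p = 0.608). Under quantile normalization the uninduced slope was called as a fall (-0.09, adjusted p = 0.00674). Over 0 to 4 h alone the slope was 0.14 (adjusted p = 0.0109) in uninduced and 0.00016 (adjusted p = 0.999) in induced cells. Their difference did not pass in that window, where 0 genes of all tested had a slope difference. From 2 to 6 h SKIL fell by 0.64 (SE 0.199, adjusted p = 0.0171) and fell by 0.97 (SE 0.199, adjusted p = 0.000829). Of its 4 transcripts, NM_005414 held 54.4% and NM_001248008 43.6% of the signal. Their induced slopes were 0.03 (adjusted p = 0.802) and -0.19 (adjusted p = 0.181) over 21749 transcripts, so neither was called as a fall. At 0 h NM_005414 had means of 39.7 TPM uninduced and 28.95 TPM induced, and NM_001248008 19.5 and 49.2 TPM. The split of reads between these isoforms is an estimate. The genes nearest to SKIL by pattern were BIRC3 (r = 0.947) and DCLRE1C (r = 0.944).

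From 2 to 6 h a large share of all genes tested was called, and so were several of the 10. In uninduced cells 3 rose (NBL1, SMAD4, TGFB1) and 5 fell (BMP2, BMP4, SKIL, SMAD6, SMAD7), where 24% of all genes rose and 15.8% fell. The call of NBL1 (1.83, adjusted p = 0.0406) did not hold for its sum with MINOS1-NBL1 (0.29, adjusted p = 0.116). In induced cells 1 rose (TGFB1) and 5 fell (BMP2, SKIL, SMAD3, SMAD6, SMAD7), where 23.7% rose and 24% fell. Removal of the 3 noncoding RNAs shifted the median late change of all genes by -0.11 log2 uninduced and -0.12 induced, and rising genes then made up 47.3% of the uninduced and 37.1% of the induced late calls, against 60.3% and 49.7% as deposited. All 3 uninduced rises lost their call without those RNAs: SMAD4 (0.40 as deposited) was at 0.29 (adjusted p = 0.0651), TGFB1 (0.43) at 0.32 (adjusted p = 0.125) and NBL1 at 1.76 (adjusted p = 0.0604). Among the genes called in the late window, the falls of BMP2, SMAD6 and SMAD7 in both arms held without any single library. The induced fall of SMAD3 (-0.30, adjusted p = 0.0485) was lost without any of 15 libraries, and was -0.18 (adjusted p = 0.339) without induced 2 h replicate 1. The uninduced late calls of 5 genes also rested on single libraries at 2 or 6 h. Without uninduced 6 h replicate 2, BMP4 was at -0.62 (adjusted p = 0.182), TGFB1 at 0.31 (adjusted p = 0.226), NBL1 at 1.81 (adjusted p = 0.125) and SKIL at -0.42 (adjusted p = 0.183). Without either uninduced 2 h library the calls of BMP4, TGFB1 and SKIL were lost as well, and without uninduced 2 h replicate 2 those of NBL1 (1.00, adjusted p = 0.359) and SMAD4 (0.31, adjusted p = 0.197). Without uninduced 6 h replicate 1 SMAD4 was at 0.27 (adjusted p = 0.25), and the calls of BMP4 and NBL1 were lost. The induced rise of TGFB1 was lost without induced 2 h replicate 2 (0.48, adjusted p = 0.0625) or 6 h replicate 2 (0.39, adjusted p = 0.111).

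Other genes of the pathway were taken from a list of 104, of which 69 had a mean of at least 1 TPM. In uninduced cells 29 rose and 23 fell over the chase, where 42.8% of all genes tested rose and 22.3% fell. In induced cells 19 rose and 31 fell, where 41.6% and 29% of all genes did. These shares are also the background for the classes below. The slope difference passed for 2, both lower when induced: ID3, a BMP target that inhibits helix-loop-helix factors (-0.34, SE 0.0551, adjusted p = 0.00686), and TOB1 (-0.17, SE 0.0356, adjusted p = 0.0311). The call of TOB1 was lost without any of 9 single libraries, which were the uninduced ones at 0, 0.5 and 4 h, uninduced 6 h replicate 1 and both induced ones at 6 h (-0.14, adjusted p = 0.258 without induced 6 h replicate 1), under median-of-ratios scaling (-0.16, adjusted p = 0.0543), with no filter (adjusted p = 0.0522) and from 6 h minus 0 h (-0.16, adjusted p = 0.0595). That of ID3 was lost with replicate 2 alone (-0.30, adjusted p = 0.993) or replicate 1 alone (-0.38, adjusted p = 0.18), and over the chase to 4 h (-0.38, adjusted p = 0.206) or 2 h (-0.29, adjusted p = 1). ID3 went from 1102.8 ± 31.4 to 216.5 ± 32.7 TPM between 0 and 6 h in uninduced and from 1332.5 ± 35.9 to 67.4 ± 2.75 TPM in induced cells (SD, n = 2). At 6 h 1 of the 69 was higher when induced (FKBP1A, 0.44, adjusted p = 0.0272) and 8 were lower, where 1.1% and 8.04% of all genes were. The TOB1 difference at 6 h (-0.73, adjusted p = 0.0129) was lost without uninduced 6 h replicate 1 (-0.63, adjusted p = 0.143) or induced 6 h replicate 1 (-0.54, adjusted p = 0.191). The 8 were ID3, MSX1, JUNB and TSC22D1 among the targets, PMEPA1, TGIF1 and TOB1 among the intracellular inhibitors, and the coreceptor RGMB; FKBP1A, TGIF1, JUNB and RGMB are named because they passed there.

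**Figure D4:**
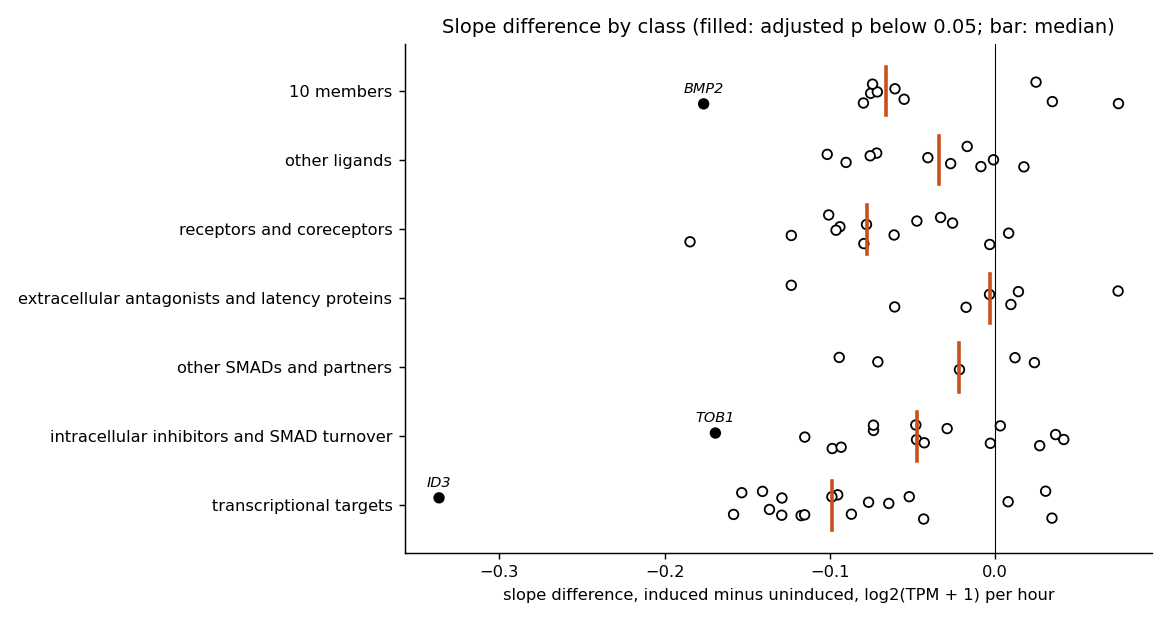
Slope difference, induced minus uninduced, in log2(TPM + 1) per hour for the 10 genes and for the 69 measured pathway genes in 6 classes; each point is a gene, bars are medians, and vertical scatter has no meaning. BMP2, TOB1 and ID3 are filled because they passed the threshold.

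By role, the transcriptional targets had the most falling members. Of 19 measured targets 13 fell and 2 rose in uninduced cells and 15 fell and 2 rose in induced cells, with median slopes of -0.23 and -0.33 against 0.04 and 0.03 over all genes. Over all genes 22.3% fell and 42.8% rose uninduced, and 29% fell and 41.6% rose induced. MSX1, a homeobox target of BMPs, ended the chase at 49.5 ± 6.43 TPM without and 26.9 ± 1.02 TPM with induction (-0.85, adjusted p = 0.000115), and its slope difference of -0.12 had an adjusted p = 0.107. TSC22D1, a TGF-beta-stimulated gene, fell steeply in both arms, with slopes of -0.51 and -0.63 and a difference of -0.12 (adjusted p = 0.138). Among 15 measured intracellular inhibitors 10 rose and 4 fell uninduced (42.8% and 22.3% of all genes), and 6 rose and 5 fell induced (41.6% and 29%). PMEPA1, which sequesters receptor-regulated SMADs, ended at 21.2 ± 1.05 TPM without and 11.8 ± 3.27 TPM with induction (-0.82, adjusted p = 0.0362). TGIF2, a SMAD corepressor, had a slope difference of -0.07 (adjusted p = 0.382).

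Of 13 measured receptors and coreceptors 7 rose and 3 fell in uninduced cells (42.8% and 22.3% of all genes), and 2 rose and 5 fell in induced cells (41.6% and 29%). TGFBR3, the coreceptor betaglycan, went from 40.1 ± 0.0636 to 42.6 ± 0.148 TPM over the chase in uninduced cells and from 49.3 ± 3.82 to 32.7 ± 0.212 TPM in induced cells, with a slope difference of -0.12 (SE 0.031, adjusted p = 0.0759). TGFBR2, the type II TGF-beta receptor, rose in uninduced cells (0.11, adjusted p = 0.00481) and had a slope of 0.01 (adjusted p = 0.79) in induced cells, and its difference of -0.10 had an adjusted p = 0.367. ACVR2A, an activin receptor, fell in both arms (-0.06 and -0.16), with a difference of -0.09 (adjusted p = 0.166). None of these 3 slope differences passed.

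Of 10 measured other ligands 2 rose and 2 fell in uninduced cells (42.8% and 22.3% of all genes), and 1 rose and 4 fell in induced cells (41.6% and 29%). BMP7 fell in both arms (-0.13, adjusted p = 0.00573 and -0.22, adjusted p = 2.27e-05), with a slope difference of -0.09 (adjusted p = 0.531). BMP8B and INHBB, both under 4 TPM at 0 and 6 h, had differences of -0.07 and -0.10 (adjusted p = 0.54 and 0.595). Of 7 measured extracellular antagonists and latency proteins 5 rose and 0 fell uninduced (42.8% and 22.3% of all genes), and 5 rose and 1 fell induced (41.6% and 29%). The 1 that fell was NOG, the BMP antagonist noggin, from 29.7 ± 3.63 to 14.2 ± 0.537 TPM (slope -0.21, adjusted p = 0.000735), while its uninduced slope was -0.09 (adjusted p = 0.138) and the difference -0.12 (adjusted p = 0.508). LTBP3, a latent TGF-beta binding protein, and THBS1, an activator of latent TGF-beta, rose in both arms, with slope differences of 0.07 and -0.06 (adjusted p = 0.529 and 0.671).

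The receptor-regulated SMADs moved in unlike directions. SMAD5 rose from 29.9 ± 0.424 to 74.8 ± 13.6 TPM in uninduced and from 33.7 ± 5.87 to 62.1 ± 2.69 TPM in induced cells, and SMAD2 from 29.4 ± 0.0495 to 61.6 ± 5.66 TPM and from 32.8 ± 3.71 to 70.9 ± 4.02 TPM. SMAD1 fell, from 35.1 ± 4.53 to 25.0 ± 2.64 TPM in uninduced and from 34.7 ± 7.11 to 17.1 ± 2.36 TPM in induced cells. All 6 slopes passed, and the slope differences of the 3 genes were -0.07 for SMAD5 (adjusted p = 0.53), 0.02 for SMAD2 (adjusted p = 0.846) and -0.09 for SMAD1 (adjusted p = 0.34). Of 5 measured genes in this class 3 rose and 1 fell in each arm, where 42.8% and 41.6% of all genes rose and 22.3% and 29% fell.

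For the other members the genes nearest in pattern over the 12 group means were GALNT10 (r = 0.988) and UBQLN4 (r = 0.987) for TGFB1, PCMTD1 (r = 0.935) and NFIB (r = 0.931) for SMAD3, and CIRBP-AS1 (r = 0.914) and SOX18 (r = 0.901) for BMP4. TGFB2 was nearest to MIER1 (r = 0.870) and NOC3L (r = 0.869), and NBL1 to ZNF446 (r = 0.860) and NUDCD3 (r = 0.840).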

How the data were processed

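The authors deposited TPM for each RefSeq transcript, to 2 decimals. Trim Galore, Bowtie2, RSEM 1.3.0 and hg19 are named, per the submitters' processing notes, with no role or order. TPM fixes the total of a library, so depth is unknown and no counting error can be given. All 24 value columns matched a sample by name (0 unmatched). Here the 48009 transcripts were added up by symbol (3 without one left out) to 25341 genes, and the 13416 whose mean reached 1 TPM were kept.

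Values were tested as log2(TPM + 1) with limma 3.58.1 in R 4.3.3, two-sided, with a variance trend, adjusted by Benjamini-Hochberg over all genes kept, at a threshold of 0.05; this scale understates changes of low genes. A line per arm on hours of chase (20 residual degrees of freedom) gave slopes and their difference, induced minus uninduced. A model of 12 group means (12 residual degrees of freedom) gave the differences at 0 and 6 h and the changes from 0 to 1 h and from 2 to 6 h. Plots used Python 3.11.15 and matplotlib 3.10.9. The fit of the slope difference was also run on simulated data, with noise drawn separately for each library, and no outcome is given here.

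The members, lists and tests were chosen with earlier results of these data known. Named were all 10 members, TOB2, up to 3 genes per pathway class with the smallest p in the slope difference plus every one past the threshold, and, for each member, the 2 genes (mean of at least 5 TPM) with the highest Pearson r over the 12 group means of log2(TPM + 1). Alternatives covered the pseudocount, filter, scaling, transcripts, noncoding RNAs, variance trend, replicate block, shorter chases, and libraries or replicate series left out. The sum of NBL1 and its readthrough gene was added after seeing the data.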

Additional observations from a re-analysis of the deposited data

Results flagged for a closer look

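The tests of the slope difference itself, induced minus uninduced in log2(TPM + 1) per hour, separated the arms for 4 of the genes named. BMP2 had a difference of -0.18 (adjusted p = 0.00807) and fell in both arms. ID3 had a difference of -0.34 (adjusted p = 0.00686), and TOB1, the gene nearest to BMP2 in pattern, -0.17 (adjusted p = 0.0311). TOB2 had a difference of 0.22 (adjusted p = 0.00807), with reads of the transgene included, and its call was lost without induced 6 h replicate 1 (0.21, adjusted p = 0.0677), as was that of BMP2 (-0.15, adjusted p = 0.0677). Of 40 alternatives, the calls of TOB2 and BMP2 were each lost in 5, that of TOB1 in 17 and that of ID3 in 4. All 4 genes lost their call with either replicate series alone and over the chase to 4 h or 2 h. With 2 libraries in a group, no group was large enough to look for a library apart from the rest.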

How the results depend on the processing

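Of 4177 single-gene values under alternatives, 3940 kept their sign and their side of the threshold, 85 changed sign without a call on either side, 113 lost a call, 32 gained one, and 7 changed sign with a call in one of the fits. Those 7 were slopes over shorter chases. Over 0 to 2 h they were the uninduced slopes of BMP2 (0.0022), BMP4 (0.12) and SMAD7 (0.46) and the induced slopes of SMAD7 (0.32) and SKIL (0.19). Over 0 to 4 h they were those of SKIL, at 0.14 uninduced and 0.00016 induced. The shorter windows hold fewer libraries.

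Genes with a slope difference numbered 46. They were 88 with a pseudocount of 0.1, 30 with no filter, 84 with a mean of at least 5 TPM, 179 under quantile normalization, 328 without the 3 noncoding RNAs, 400 with protein-coding transcripts alone, 194 from 6 h minus 0 h, 7 for single transcripts, and 0 over 0 to 4 h and 0 to 2 h. Members with a slope difference, 1 as reported, were 2 without the 3 noncoding RNAs and with protein-coding transcripts alone, and 0 over 0 to 4 h and 0 to 2 h. Over 0 to 2 h the uninduced slopes gave 3008 genes and 3 members, against 8739 and 6, and the induced slopes 3826 and 5, against 9480 and 8. Genes different at 0 h, 4 as reported, were 7 under quantile normalization, 8 without the 3 noncoding RNAs, 10 with protein-coding transcripts alone and 2 with no variance trend. Members different at 6 h, 1 as reported, were 2 under median-of-ratios scaling, quantile normalization, protein-coding transcripts alone and without the 3 noncoding RNAs. Over all alternatives the genes different at 6 h ranged from 491 to 1870, against 1226 as reported. Early calls fell from 476 to 300 genes uninduced and from 499 to 279 induced with no variance trend. Members with an early induced call, 0 as reported, were 1 with a pseudocount of 0.1, a mean of at least 5 TPM or quantile normalization. Genes with that call ranged from 16 to 1221 over all alternatives, against 499. Members with a late uninduced call, 8 as reported, were 5 with protein-coding transcripts alone and without the 3 noncoding RNAs. For all genes the late uninduced calls ranged from 3634 to 6368 over all alternatives, against 5343. The cause of these changes was not tested.

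With the replicate block, genes with a slope difference were 99, different at 0 h 11, different at 6 h 1870 (1226 without it), with an early change 1035 uninduced and 1221 induced; members were 2 at 6 h (SMAD4 added, adjusted p = 0.0251) and 2 in the early induced change (SMAD7, adjusted p = 0.025, and NBL1, adjusted p = 0.0338). Same-numbered libraries of 66 pairs of groups had deviations correlated from -0.0364 to 0.253 (median 0.0975, 29 over 0.1). The main fits used no replicate block, and what same-numbered libraries share was not tested.

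With libraries or a replicate series left out, the ranges were 0 to 164 genes and 0 to 1 members for the slope difference. They were 0 to 5 genes at 0 h and 491 to 1316 genes at 6 h. The early change gave 28 to 589 genes and 0 to 2 members uninduced, and 16 to 624 genes and 0 to 1 members induced. The late uninduced change gave 3634 to 5506 genes and 3 to 8 members. Slopes then ranged from -0.17 to -0.13 for BMP2 uninduced. Differences at single times could not be tested within 1 replicate series, and shorter chases were run for slopes alone. Depth is unknown, so the precision of low genes such as BMP4 and TGFB2 cannot be given.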
